A study of Mus musculus with 56 samples.

Results

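The cells described here were 998 of the 5809 cortical microglia captured from wild-type mice at postnatal day 28 (P28), 491 of 2874 in the first library and 507 of 2935 in the second. They were chosen because each held at least 4 unique molecular identifiers (UMIs, each the trace of 1 captured RNA molecule) summed over 6 genes: Cst7, Csf1, Ccl3, Ccl4, Ccl9 and Plaur. The 3356 P28 microglia with at most 1 such UMI, 1662 and 1694 by library, are called the low class and served for comparison. A cell counted as a microglial cell when it had at least 500 genes, under 10% mitochondrial UMIs, at least 1 UMI of C1qa and fewer than 8 UMIs over 6 genes of border macrophages (Pf4, Lyve1, F13a1, Ms4a7, Cbr2 and Cd163). Because the 6 genes were measured in these same cells to choose them, their levels at P28 are given as a description and were not tested.

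The series holds 8 single-cell libraries of cortex from mice on a B6 background, 2 for each of 4 groups: wild type at P28, wild type at postnatal day 9 (P9), and P9 mice labelled ST2 Het or ST2 KO for the receptor of the cytokine IL-33. Brains were dissociated with papain, cleared on Percoll and enriched with CD11b beads, and the design text describes the wild-type cells as intermediate for CD45 and CD11b. The labels name no animals, so libraries served as the replicates, and their spread may be technical. P-values for class differences rest on how far that difference varied from library to library, pooled over all 4 groups. The wild-type libraries of both ages carry 1 date in their names and the ST2 libraries another.

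Microglia are the resident macrophages of the brain. Ccl3 and Ccl4 are secreted chemokines that draw other leukocytes, and Ccl9 is a rodent chemokine that binds Ccr1. Csf1 is a ligand of Csf1r, the receptor on which microglia depend, Cst7 makes cystatin F, an inhibitor of lysosomal cathepsins, and Plaur makes the receptor of the protease urokinase. Chemokine and Cst7 expression is known in microglia that respond to damage, and immediate early genes, transcription factors switched on within minutes of a stimulus, are also known to rise while brain tissue is being dissociated.

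Ccl9, Ccl3 and Ccl4 lie in the same chemokine cluster on chromosome 11 of the mm10 build: Ccl9 from 83572919 to 83578636, Ccl3 from 83647844 to 83649355, both on the minus strand, and Ccl4 from 83662584 to 83664683 on the plus strand. Most chosen cells reached 4 UMIs on Ccl9 or on Ccl3 and Ccl4 together. The 250 bases upstream of the start site are shown for Ccl9 and Ccl3 (RefSeq, GRCm38.p6, chr11:83578637-83578886 and chr11:83649379-83649628, minus strand, 5′ to 3′). Capitals mark a match to TGANTCA, with N any base, a loose form of the AP-1 motif of Fos and Jun proteins. Binding to the marked letters was not tested.
Ccl9: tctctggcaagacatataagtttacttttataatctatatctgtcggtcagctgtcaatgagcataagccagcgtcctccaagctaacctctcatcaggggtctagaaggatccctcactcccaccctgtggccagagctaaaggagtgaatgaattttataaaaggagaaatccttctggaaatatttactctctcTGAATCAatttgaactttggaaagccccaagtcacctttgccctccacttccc
Ccl3: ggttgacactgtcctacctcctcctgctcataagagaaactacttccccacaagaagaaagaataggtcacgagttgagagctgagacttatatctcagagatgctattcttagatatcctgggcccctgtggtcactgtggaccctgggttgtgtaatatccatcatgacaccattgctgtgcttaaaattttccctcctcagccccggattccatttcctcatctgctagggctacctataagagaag
The motif TGANTCA, searched on both strands, was present once upstream of Ccl9, as TGAATCA from -53 to -47, and in 6.75% of 32851 promoters of the same length. The NF-kB motif (1.21% of promoters) and the PU.1 motif GAGGAAGT (2.44%) had no match in either sequence. The table held 5 of the 6 rule genes, all but Ccl4. Plaur had the AP-1 letters TGACTCA from -69 to -63, Csf1 the NF-kB letters GGAAAGTCCC from -154 to -145, and the Cst7 window held none of the 3 motifs.

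The chosen cells were mainly cells with Ccl9. In the 2 libraries, 467 and 490 of them (95.1% and 96.6%) had a Ccl9 UMI, against 64 and 65 (13% and 12.8%) with a Cst7 UMI. Ccl4 was found in 145 and 131 cells (29.5% and 25.8%), Ccl3 in 124 and 116 (25.3% and 22.9%), Csf1 in 45 and 47 (9.16% and 9.27%) and Plaur in 56 and 26 (11.4% and 5.13%). No chosen cell had all 6 genes. Cst7, the gene that leads the working name of these cells, was thus absent from most of them at this depth, and the cells are called here by the rule.

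Most cells qualified on Ccl9 alone. Ccl9 reached 4 UMIs by itself in 725 cells (72.6%), 339 and 386 by library. The other 5 genes together reached 4 UMIs in 191 cells (19.1%), 98 and 93, and 62 cells met both conditions. In 476 cells (47.7%) the other 5 genes had no UMI at all. The chemokine UMIs were distributed in opposite ways. Ccl9 was spread over many cells with at most 18 and 26 UMIs in 1 cell, whereas Ccl4 was concentrated in few cells with up to 141 and 196. Ccl9 made up 46.2% and 42.5% of the 6 genes' UMIs, Ccl4 34.5% and 36.1%, Ccl3 13.8% and 17.9%, and Cst7 2.61% and 1.76%. UMIs were read at the 3′ end and are not divided by gene length.

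**Figure D1:**
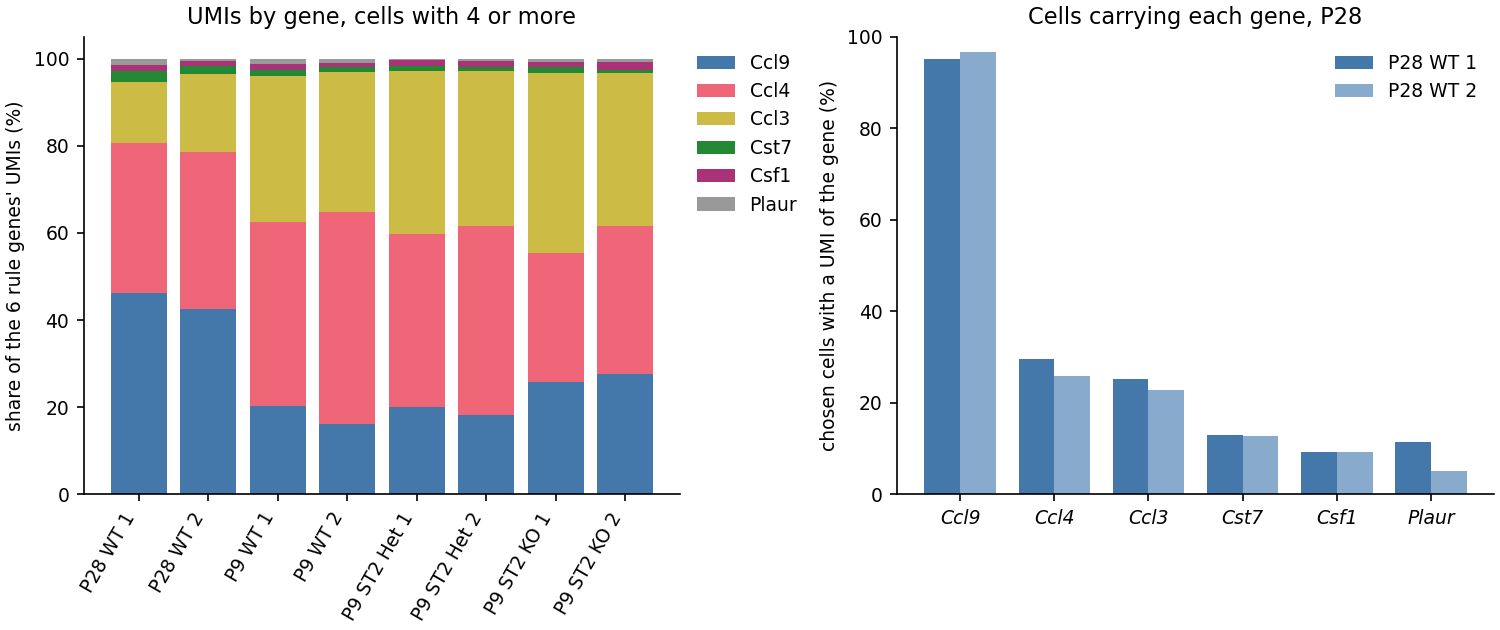
Left, the share of the 6 rule genes' UMIs (%) contributed by each gene in the cells with 4 or more such UMIs, for each of the 8 libraries; right, the share of chosen P28 cells (%) with at least 1 UMI of each gene, by library. Ccl9 gave 46.2% and 42.5% of these UMIs at P28 and between 16.1% and 27.6% in the 6 P9 libraries.

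The threshold itself was not a visible border. Beside the 341 cells with exactly 4 rule UMIs stood 550 with 3, and the median cell had 5. Without the leukocyte-marked cells described further on, the cells with 3 rule UMIs held 937 CPM of Ccl9 (UMIs scaled to the same total), 144 of Cd83 and 4869.8 of P2ry12, and those with 4 held 1231, 151 and 4726. The steep part lay further up. Of 80 cells with 20 or more rule UMIs, the 75 without the leukocyte mark held 10669.6 CPM of Ccl4, 1189.7 of Cd83, 3964 of Apoe and 2942 of P2ry12. Across the bins Cd83 and Apoe were highest, and the purinergic receptor P2ry12 and the microglial membrane protein Tmem119 lowest, in the top bin of both libraries.

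**Figure D2:**
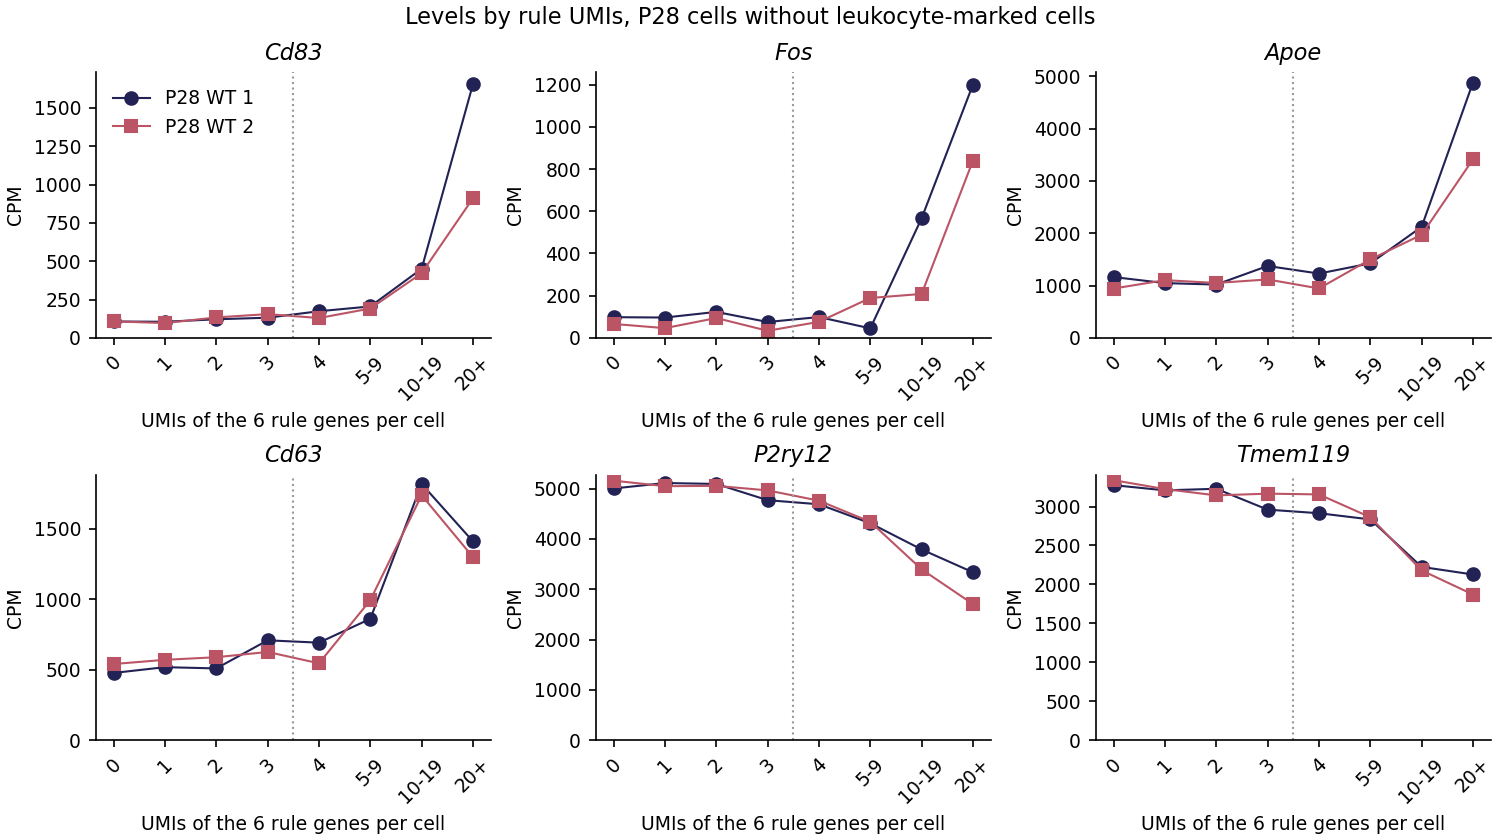
Levels of 6 genes (CPM, linear axes from 0) against the number of rule UMIs per cell, for both P28 libraries without leukocyte-marked cells; the dotted line marks the threshold of 4. Between 3 and 4 rule UMIs P2ry12 and Tmem119 differed little, while Fos in library 2 went from 33.6 to 76.0 CPM. Cd83, Fos and Apoe changed most between the last bins, and Cd63, P2ry12 and Tmem119 between 5 to 9 and 10 to 19 rule UMIs. In the top bin Cd83 reached 1655 and 911 CPM and P2ry12 was at 3337 and 2705.

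Some chosen cells carried the RNA of other leukocytes. Of the 998, 45 (4.51%, 24 and 21 by library) had at least 6 UMIs of monocyte, neutrophil, T and NK or B cell markers or fewer than 5 UMIs per 1000 of 6 microglial genes, and they held 8.43% of the UMIs of the chosen cells. In the low class these leukocyte-marked cells were 28 of 3356 (0.834%). They had a median of 3.49 UMIs per 1000 of these microglial genes, which include P2ry12, Tmem119, Cx3cr1, Csf1r and Sall1, against 21.2 in the other chosen cells, so C1qa and the border macrophage filter had let them through. No doublet caller was run, so doublets and other leukocytes among them cannot be told apart. They contributed 98.3% of the chosen cells' UMIs of the monocyte gene Chil3, 97.4% of H2-Aa and 86.6% of Cd74, but 6.51% of Cd83 and 3.03% of Cst7. List counts at P28 are therefore given with and without these cells. Without them, the summed level of 7 monocyte genes was 17.2 and 14.7 CPM in the chosen cells and 17.8 and 15.4 in the low class, and that of 7 neutrophil genes 254.6 and 223.1 against 279.4 and 235.7. Monocyte and neutrophil markers and the 6 microglial genes defined the leukocyte-marked cells. These sums, the share of Chil3 and the median of 3.49 are therefore set in part by that choice. The 11 border macrophage genes came to 409.1 and 408.4 against 432.1 and 431.9.

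The microglial identity of the chosen cells was otherwise plain. With all cells kept, P2ry12 was detected in 98.8% and 98.4% of them, Csf1r in 99.6% and 99.4%, Cx3cr1 in 97.8% and 98.8%, Tmem119 in 97.4% and 98.0%, and the transcription factor Sall1 in 42.4% and 43.2%. Their median depth was 2948 and 2826 UMIs, against 2162 and 2094.5 in the low class. Over all 8 libraries the totals ran from 4254276 to 11712016 UMIs, and 137 barcodes occurred in more than 1 library, 13 of them in both P28 libraries. The design text states 9391 wild-type cells, while the matrix holds 11424 wild-type barcodes, of which 11276 passed the gene and mitochondrial filters. Only 1 cell met the endothelial rule meant to give a background from free RNA, so the shares of cells with a UMI have no such background.

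Between the chosen cells and the low class at P28, 319 genes were higher and 132 lower of 10456 genes (3.05% and 1.26% of them; edgeR on UMIs summed per library and class, Benjamini-Hochberg adjusted p under 0.05). Without the leukocyte-marked cells, 154 were higher and 77 lower of 10345 (1.49% and 0.744%). With all cells kept, the 15 higher genes with the greatest fold among those of at least 20 CPM were Chil3, Ly6c2, Wfdc17, Il1b, S100a4, Lgals3, Vim, H2-Aa, Napsa, H2-Eb1, Cd74, Ifitm6, Ms4a4c, Cybb and H2-Ab1, nearly all genes of monocytes or antigen-presenting cells. For Chil3 the log2 difference was 4.27 ± 0.21 (SE) with levels of 181 and 119 CPM in the chosen cells against 13.7 and 2.11. When the leukocyte-marked cells were left out, the leading 15 by the same rule included Il1b, Ccl2, Egr2, Atf3, Nr4a1, Klf2, Fosb, Ier2, Egr1, Cd83, Fos, Dusp1, Nfkbid and Mfsd12, largely cytokine and immediate early genes. Values below leave these cells out unless stated.

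Of the 2 markers that the rule did not use, 1 was higher. Cd83, a surface protein of activated myeloid cells, stood at 328 and 278 CPM in the chosen cells and at 105 and 104 CPM in the low class, with no overlap. Its log2 difference was 1.54 ± 0.08 (SE; adjusted p = 2.0e-35), and 1.84 ± 0.13 among cells of 1903 to 2831 UMIs, the middle range of P28 depth. Slamf8, a receptor of the SLAM family, was at 27.2 and 36.5 CPM against 25.7 and 24.1, a difference of 0.35 ± 0.20 that did not pass (adjusted p = 0.51). Both were listed as markers with results of these libraries known, so Cd83 is not independent evidence for the cell set.

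Rule genes stood together only in part when each was left out of the choice. With all cells kept and cells chosen by the other 5 genes, Ccl4 was at 927.85 and 1160.2 CPM against 49.7 and 35.0, and Ccl3 at 353.6 and 573.45 against 25.3 and 23.1, on average log2 differences of 4.64 and 4.22 (4.70 and 4.31 without leukocyte-marked cells). Csf1 was at 30.7 and 35.9 against 5.20 and 4.99, and Cst7 at 58.4 and 42.8 against 13.9 and 16.8. Plaur, with few UMIs, was at 31.0 and 12.1 against 7.23 and 5.24. Ccl9 was at 785.9 and 1054.5 CPM against 556.8 and 569.0, a log2 difference of 0.50 and 0.89 (0.50 and 0.96 without leukocyte-marked cells). Each gene was read in its own set of cells, and Ccl9 had the highest level in the low class, so the 6 differences are not ranked.

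Within each of 4 depth bins, cells with at least 4 Ccl9 UMIs had a Ccl3 or Ccl4 UMI more often than cells with at most 1. This held in both libraries, by little in the shallowest bin. Depth still varied within a bin, and the deepest had no upper limit. In the shallowest of 4 depth bins the shares were 8.0% (2 of 25; 95% Clopper-Pearson interval 0.984 to 26) against 7.60% in library 1, and 8.11% (1.70 to 21.9) against 7.59% in library 2. In the second bin they were 10.9% against 8.57%, and 11.1% against 9.16%. In the third bin they were 17.8% (10.5 to 27.3) against 9.60% (7.03 to 12.7), and 19.4% (12.3 to 28.4) against 9.74% (7.11 to 12.9). In the deepest they were 31.5% (24.4 to 39.2) against 23.4% (19.1 to 28.1), and 27.9% (21.5 to 35.1) against 21.6% (17.1 to 26.8). Intervals cover counting error only and overlap in each of the 4 bins, and the difference was not tested.

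Immediate early and dissociation stress genes formed the group with the most members higher. At P28, 23 of 26 tested members were higher and none lower (all genes, 1.49% and 0.744%), with a median log2 difference of 1.26 against -0.01 over all genes, and with leukocyte-marked cells kept it was also 23 of 26 (median 1.42; all genes, 3.05%). Atf3, a stress-induced transcription factor, was at 148 and 130.2 CPM in the chosen cells against 29.4 and 27 (2.30 ± 0.14, adjusted p = 5.3e-30). Fos, the partner of Jun in AP-1, was at 212 and 229 CPM against 96.3 and 57.6 (1.53 ± 0.10, adjusted p = 4.5e-27). Maff, a small Maf factor, and Egr2, a zinc finger factor, were higher by 3.36 ± 0.72 and 2.42 ± 0.26, and Klf2 by 1.80 ± 0.10. In each of these genes both chosen-cell values lay above both low-class values. They were named as called members with large differences or after their values were seen, so this separation adds no support. The median share of UMIs in this list was nonetheless alike in the chosen cells (0.268% and 0.252%, all cells) and the low class (0.250% in both), and Fos itself was detected in 145 of the 998 chosen cells and 182 of the 3356 others. In the middle depth range, 10 of 21 tested members were higher and none lower (0.765% and 0.0312% of all genes).

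NF-kB targets, the cytokines and feedback inhibitors induced by inflammatory signals, moved less uniformly. Of 23 tested, 7 were higher and none lower (median 0.35; all genes, 1.49% and 0.744%), and with all cells kept also 7 and none (median 0.34; all genes, 3.05% and 1.26%). Il1b was at 32.9 and 56.6 CPM against 2.89 and 5.62 (3.38 ± 0.26, adjusted p = 1.2e-21), and Tnf at 10.1 and 10.9 against 1.05 and 0.535 (3.66 ± 0.51, adjusted p = 1.3e-08). Cd83, also on this list, and the nuclear IkB proteins Nfkbid (1.43 ± 0.18) and Nfkbiz (1.37 ± 0.21) were higher too. Nfkbia, the classical NF-kB inhibitor, was at 224 and 214 CPM against 197 and 186 and did not pass (0.19 ± 0.08, adjusted p = 0.24). In the middle depth range, where 17 members were tested, Cd83 alone passed (0.765% of all genes were higher).

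Other chemokines were higher as well. Of 9 tested, 5 rose and none fell: Ccl2, Ccl7, Ccl12, Ccl6 and Cxcl16 (all genes, 1.49% and 0.744%). With all cells kept, Cxcl10 rose too (4.55 ± 0.77) and Ccl5, a chemokine of T and NK cells, fell (-0.90 ± 0.24; all genes, 3.05% and 1.26%). Ccl2, which draws monocytes, was at 80.3 and 202 CPM against 36.2 and 13.7 (2.48 ± 0.18, adjusted p = 1.2e-24), and its relative Ccl12 at 158 and 258 against 117 and 101 (0.93 ± 0.10, adjusted p = 1.5e-12). In both genes library 2 had the higher value among chosen cells and the lower among the rest. The receptor Ccr1, which binds Ccl9, was at 33.5 and 41.4 against 42.8 and 43.6 and did not pass (-0.21 ± 0.16, adjusted p = 0.69). The complement peptide receptors C5ar1 and C3ar1 rose by 0.63 ± 0.10 and 0.59 ± 0.08.

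Genes of the damage-associated state, the programme of microglia around plaques and injury, were partly higher. Of 25 tested, 13 rose and none fell (median 0.30; all genes, 1.49% and 0.744%), and 15 rose with all cells kept (median 0.44; all genes, 3.05%). Spp1, osteopontin, was at 19 and 5.47 CPM against 0.525 and 0.535 (4.42 ± 0.56, adjusted p = 2.8e-10). Over all cells, it had 45 UMIs in 19 of the 998 cells, and 13.3% of these UMIs were in leukocyte-marked cells. Abundant members moved by less. The tetraspanin Cd63 was at 971 CPM in both libraries against 490.1 and 558 (0.89 ± 0.05, adjusted p = 2.6e-35), Cd9 differed by 0.56 ± 0.04, and the lipid carrier Apoe was at 1689.5 and 1594 against 1099 and 1024 (0.63 ± 0.04, adjusted p = 4.7e-29). The lipase Lpl (1.04 ± 0.16), the kinase receptor Axl (1.75 ± 0.41) and the galectin Lgals3 (2.73 ± 0.45) also rose. Trem2, the lipid receptor that this state depends on, was at 2744 and 2797 CPM against 2779 and 2875 and did not pass (-0.03 ± 0.03, adjusted p = 0.85). In the middle depth range 6 of 18 tested members were higher (0.765% of all genes).

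Homeostatic microglial genes, the signature of resting cells, were lower by small amounts. Of 20 tested, 9 fell and none rose (median -0.11; 0.744% of all genes fell), and with all cells kept 13 fell (median -0.15; 1.26% of all genes). P2ry12 was at 4245 and 4156 CPM against 5002 and 5153 (-0.27 ± 0.03, adjusted p = 7.1e-11), and Tmem119 differed by -0.26 ± 0.03. Sall1 did not pass (0.04 ± 0.08). They did not pass in cells of like depth: between 1903 and 2831 UMIs, with 187 and 201 chosen cells, 0 of 20 passed with edgeR (4 at an unadjusted p under 0.05; 0.0312% of all genes were lower) and P2ry12 differed by -0.04 ± 0.06.

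Lysosomal genes went in both directions. Of 25 lysosomal genes 3 rose (Cd63, Ctsb and Ctsz) and 5 fell, among them Ctsh, Lgmn, Ctss and Laptm5, and with all cells kept 3 rose and 7 fell. For this and the next lists, the shares over all genes were 1.49% higher and 0.744% lower without leukocyte-marked cells, and 3.05% and 1.26% with them. The protease cathepsin B, Ctsb, was at 2714 and 2361 CPM against 2075 and 2077 (0.29 ± 0.03, adjusted p = 7.6e-11). Of 14 glycolysis genes 5 rose, with or without these cells, with Tpi1 at 0.69 ± 0.09, Slc16a3 at 0.67 ± 0.16 and Ldha at 0.42 ± 0.08. Of the MHC class II list, 4 of 6 tested rose with all cells kept and 1 without the leukocyte-marked cells, Cd74, the invariant chain (1.17 ± 0.14, adjusted p = 9.7e-11). Of 19 interferon response genes the corresponding counts were 7 and 1, the latter Isg15 (0.86 ± 0.22, adjusted p = 0.0087). Of 34 ribosomal protein genes they were 13 and 1, Rps2. Of 9 MHC class I genes and 26 cell cycle genes, 0 passed with edgeR either way (2 and 2 at an unadjusted p under 0.05 without these cells), and 0 with DESeq2 on all cells. Of the 7 growth factor and CSF1 receptor genes tested, Csf1r alone changed (-0.12 ± 0.03, adjusted p = 0.033), and with all cells kept Bmp2k was lower as well.

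The chosen cells differed by which of the 6 genes they held. A cell is called Ccl9-led when it had at least 4 UMIs of Ccl9 and at most 1 of the other 5 genes, and a Ccl3/Ccl4 cell when Ccl3 and Ccl4 together reached 4 UMIs. Of the 998 cells 598 (59.9%) were Ccl9-led, 284 and 314 by library, and 154 (15.4%) were Ccl3/Ccl4 cells, 73 and 81. This division was made after the levels had been seen and is described without a test. Without leukocyte-marked cells, 276 and 307 Ccl9-led, 71 and 75 Ccl3/Ccl4 and 120 and 104 other chosen cells were left.

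Ccl9-led cells held 135 and 124 CPM of Cd83 (low class 106 and 103), 1029 and 1078 of Apoe (1110 and 1015) and 4583 and 4581 of P2ry12 (5053 and 5109). Immediate early genes differed between the libraries. In library 1 Fos was at 32.4 against 97.3, Atf3 at 11.2 against 29.7 and Klf2 at 17.9 against 89.6, all lower than in the low class. In library 2 Fos was at 58.7 against 57.1, Atf3 at 33.8 against 26.8 and Klf2 at 73.6 against 37.2. Their share of immediate early UMIs was 0.242% and 0.236% in the median cell, against 0.248% and 0.250%. Ccl6, Ccl12, Cd9 and Cd63 stood above the low class in both libraries, the last at 702 and 693 against 495 and 553.

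Among the low class and the kinds of chosen cell, Ccl3/Ccl4 cells had the highest Cd83, Fos, Atf3 and Apoe and the lowest P2ry12. Cd83 was at 1043 and 750.1 CPM, Fos at 1144 and 831, Atf3 at 719 and 585, Apoe at 3839 and 3842, and P2ry12 at 3810.0 and 3106. Ccl2 reached 420.5 and 1097 and Tnf 58.9 and 59.6, against 36.6 and 13.5 for Ccl2 and 1.06 and 0.531 for Tnf in the low class. Their median immediate early share was 0.696% and 0.962%, the highest of the 4 sets, and the part of dissociation in these levels was not tested. The remaining chosen cells held the most Cst7, at 226 and 188 CPM. Cst7 is a rule gene, so this level is set in part by how the cells were sorted. They also differed from the low class, with Cd83 at 346 and 342 against 106 and 103 CPM. Cd9 was at 2474 and 2392 against 1263 and 1272, and P2ry12 at 3927 and 3884 against 5053 and 5109. Their Cd63 was at 1349 and 1625, against 1354 and 1188 in Ccl3/Ccl4 cells, and their immediate early share was 0.246% and 0.231%.

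**Figure D3:**
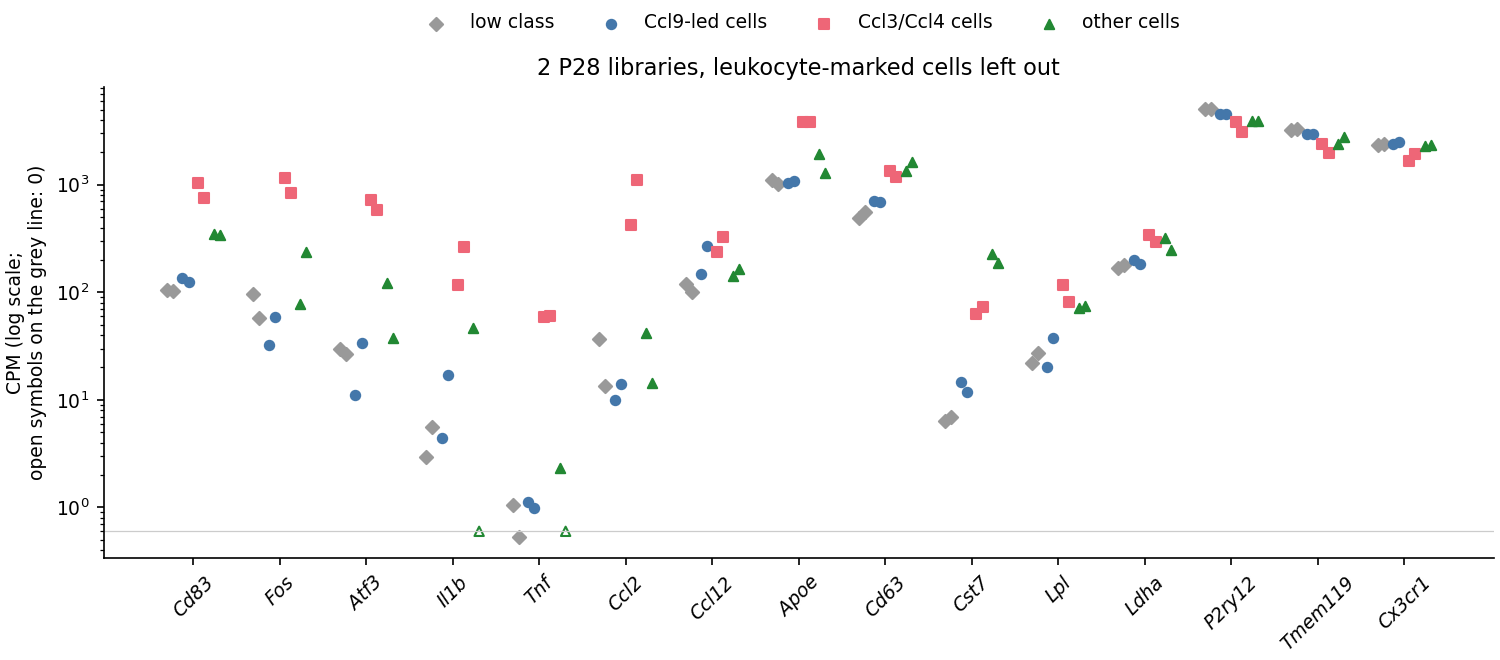
Levels of 15 genes (CPM, log axis) in the low class and in the Ccl9-led, Ccl3/Ccl4 and other chosen cells, 1 symbol per P28 library, leukocyte-marked cells left out; open symbols on the grey line are at 0. Ccl9-led cells sat near the low class in Cd83 and Apoe and below it in Fos in library 1, while Ccl3/Ccl4 cells reached 1043 and 750.1 CPM of Cd83.

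The rule was also changed and the fit repeated, settings chosen after the data had been seen. With Ccl9 left out of the rule (at least 4 UMIs of the other 5 genes against at most 1), 360 genes were higher and 228 lower of 10486 (3.43% and 2.17%). With Ccl9 alone, 16 were higher and 20 lower of 10483 (0.153% and 0.191%). Immediate early genes passed in 25 of 26 without Ccl9 (median 2.99) and in none upward with Ccl9 alone, where Fos and Jun fell by 0.90 ± 0.13 and 0.49 ± 0.09. NF-kB targets passed in 15 of 23 and 1 of 23, the last being Cd83 (2.91 ± 0.10 without Ccl9, 0.70 ± 0.09 with Ccl9 alone). Damage-associated genes passed in 16 of 25 and 5 of 25: Spp1, Ank, Cd63, Ccl6 and Cd9 were higher with Ccl9 alone. Apoe differed by 1.78 ± 0.05 without Ccl9 and by -0.04 ± 0.06 with it alone (adjusted p = 0.97). Lysosomal genes rose in 13 of 25 without Ccl9, among them Lamp1, Lamp2, Cd68 and Ctsd, and in 1 with it alone. The 2 choices, of 179 cells without Ccl9 and 696 with it alone, overlap in 57 cells and were not compared with each other in a test.

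**Figure D4:**
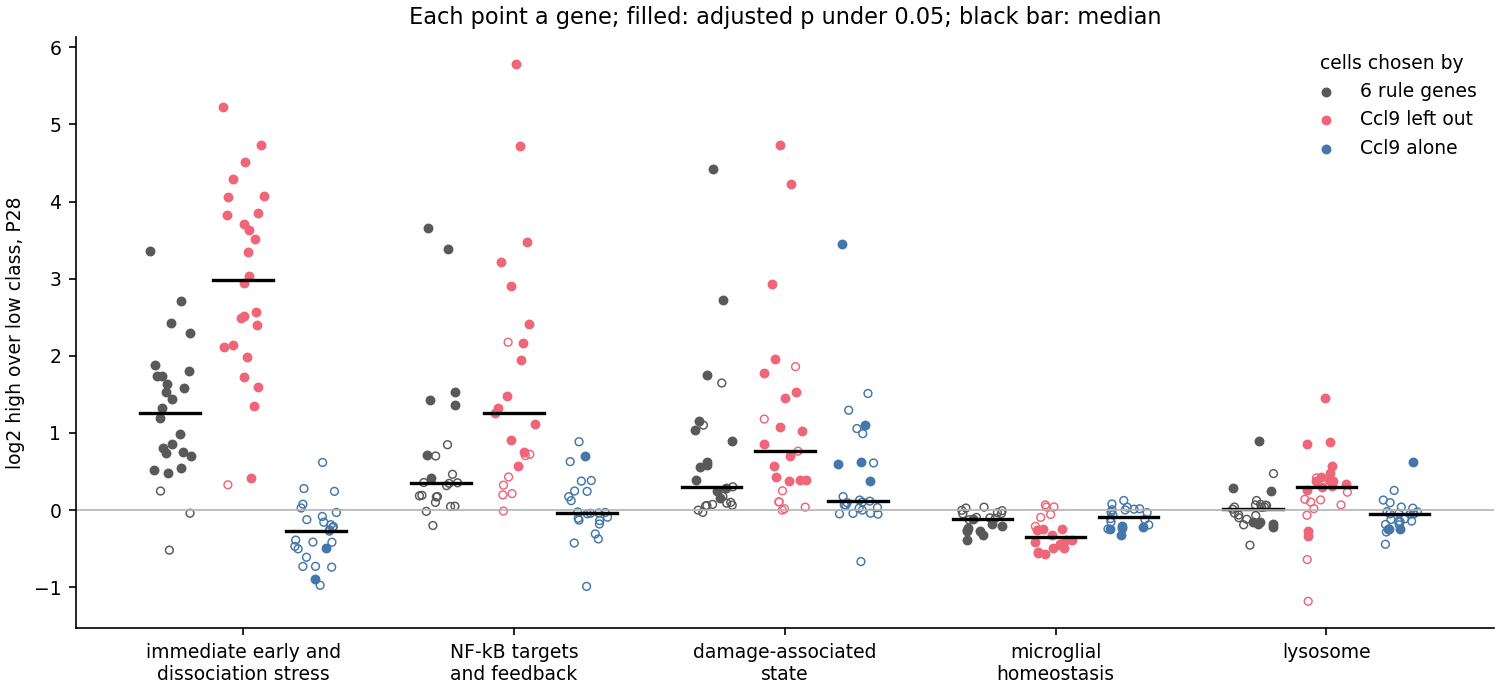
Log2 difference of each tested gene between chosen and low class at P28, by gene list, with cells chosen by all 6 rule genes (grey), by the 5 without Ccl9 (red) and by Ccl9 alone (blue), leukocyte-marked cells left out; filled points passed an adjusted p of 0.05 and black bars are medians. The immediate early median was 1.26, 2.99 and -0.26 in that order, each against the low class of its own rule.

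Ccl12, Cd63 and Cd9 passed under each of these rules. Ccl12 rose by 1.20 ± 0.14 without Ccl9 and by 0.74 ± 0.11 with Ccl9 alone, and by 1.26 ± 0.17 among cells of low immediate early share (under the P28 median of 0.251%). Cd63 rose by 1.45 ± 0.07, 0.63 ± 0.07 and 0.97 ± 0.07 under the same settings, and Cd9 by 1.02 ± 0.06, 0.38 ± 0.06 and 0.62 ± 0.05. Gas2l3, a linker of actin and microtubules, was at 11.4 and 12.2 CPM against 2.36 and 1.87 (2.45 ± 0.40, adjusted p = 2.3e-06), and with Ccl9 alone it rose by 2.14 ± 0.43. Among cells of low immediate early share its difference was 1.93 ± 0.60 (adjusted p = 0.17).

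The genes that were lower were of modest abundance and size. With all cells kept, the 10 leading ones were Gzma, Qsox1, Arsg, Zfp688, Tmem91, Tmem52, Maged2, Dopey2, Inpp4b and Proser1. Gzma, granzyme A of cytotoxic lymphocytes, was lower by -2.11 on the log2 scale with 281 UMIs in the low class, and it was not tested once leukocyte-marked cells were left out. Arsg, a lysosomal sulfatase, was at 15.2 and 14.6 CPM against 25.7 and 28.4 (-0.86 ± 0.23, adjusted p = 0.014), and Qsox1, a sulfhydryl oxidase, at 12 and 11.6 against 23.1 and 19.3 (-0.84 ± 0.25, adjusted p = 0.049).

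The 6 P9 libraries held 1412 cells by the same rule, with another makeup. Ccl9 alone reached 4 UMIs in 35.6% of them and the other 5 genes in 55.7%, against 72.6% and 19.1% at P28. Because P9 cells were deeper, shares (all cells kept) were compared after thinning each cell to 2000 UMIs, which left out 846 and 987 P28 cells and 168 and 91 wild-type P9 cells. Cells with 4 or more Ccl9 UMIs then made up 7.10% (95% interval 6.02 to 8.31) and 8.37% (7.18 to 9.69) at P28 and 1.02% (0.663 to 1.51) and 1.24% (0.816 to 1.79) at P9. Cells with 4 or more Ccl3 and Ccl4 UMIs made up 2.86% and 2.62% at P28 and 4.50% and 5.59% at P9. In both measures the ages did not overlap, in opposite directions, by 6.60 and -2.30 percentage points. These shares are set by the rule's own genes and are given as a description. The exact permutation p was 0.33 for both, the lowest possible with 2 libraries against 2, so it decides nothing.

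Both shares kept these directions without thinning, where Ccl9 cells made up 12.5% ± 0.959 (SD, n = 2) at P28 and 4.72% ± 0.230 at P9, and Ccl3 and Ccl4 cells 2.65% ± 0.155 and 8.20% ± 0.773. The difference in the total share depended on depth. All 6 genes together gave 3.71% ± 0.299 at P28 and 3.33% ± 0.637 at P9 at 1000 UMIs, a difference of 0.383 points. At 2000 UMIs the difference was 5.16 points (12.6% against 7.42%). Unthinned, the members' share was 17.1% and 17.3% at P28 and 14.9% and 15.1% at P9.

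**Figure D5:**
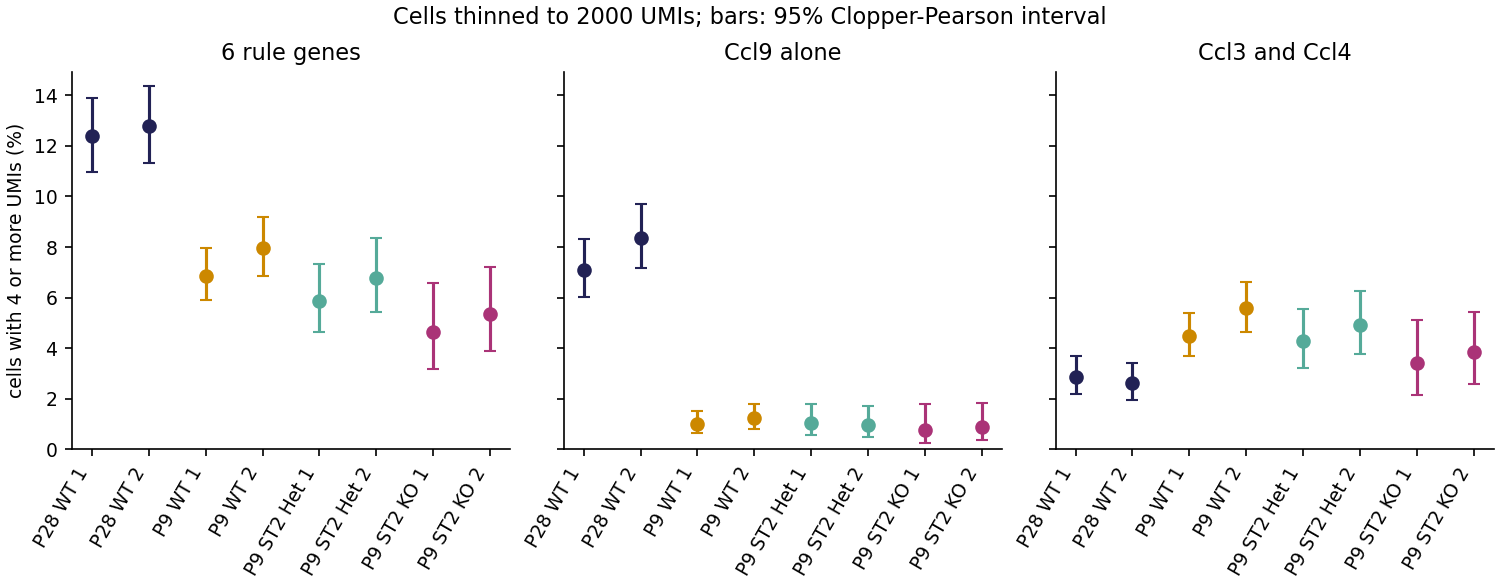
Share of microglia (%) with 4 or more UMIs of all 6 rule genes, of Ccl9, and of Ccl3 and Ccl4, in each library after thinning cells to 2000 UMIs; points are libraries and bars 95% Clopper-Pearson intervals. Ccl9 cells were at 7.10% and 8.37% at P28 and at most 1.24% in every P9 library.

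Within wild-type P9 libraries the same rule gave 558 higher and 464 lower genes of 10345 (5.39% and 4.49%; with leukocyte-marked cells kept, 5.03% and 3.67%). Immediate early genes were higher in 25 of 26 (median 2.02), NF-kB targets in 13 of 23 (0.69), damage-associated genes in 22 of 25 with 1 lower (0.71) and lysosomal genes in 14 of 25 with 4 lower, and 13 of 20 homeostatic genes were lower with 1 higher. Tested directly, the signed class difference, chosen minus low, was higher at P28 than at P9 for 111 genes and lower for 170 (1.07% and 1.64%; with all cells kept, 1.34% and 1.57%). It was lower for 18 of 26 immediate early genes and higher for none, lower for 8 of 23 NF-kB targets and higher for none, and lower for 8 of 25 damage-associated genes and higher for 1.

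Single genes showed the same. Cd83 was higher by 2.19 ± 0.07 at P9, a difference between ages of -0.65 ± 0.11 (adjusted p = 2.8e-06), Apoe by 1.52 ± 0.03 (-0.89 ± 0.05, adjusted p = 6.4e-32) and Nfkbia by 1.75 ± 0.07 (-1.56 ± 0.11, adjusted p = 1.4e-25). Apoe levels at P9 were 15081 and 13955 CPM in the chosen cells and 4939 and 5178 in the low class. Ccl12 went the other way, with -0.09 ± 0.08 at P9 and a difference between ages of 1.02 ± 0.13 (adjusted p = 3.6e-10). Within P9, Ccr1, the receptor of Ccl9, was lower in the chosen cells than in the low class, at 64.5 and 68.5 CPM against 143 and 154 (-1.16 ± 0.10). The difference between ages in this class difference was 0.95 ± 0.19 (adjusted p = 0.00028). With leukocyte-marked cells kept, the 5 genes with the largest difference between ages were H2-Aa, H2-Eb1, S100a9, H2-Ab1 and Cd74, and without them they were Nes (2.72 ± 0.75), Dusp18 (-2.67 ± 0.47), Gas2l3 (2.51 ± 0.45), Casp4 (-1.87 ± 0.32) and Tnfaip3 (-1.86 ± 0.30). Since the P28 cells were mostly Ccl9-led and the P9 cells mostly not, the makeup of the chosen cells differed with age beside all of these values, and its part in them was not tested.

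In the libraries labelled ST2 Het and ST2 KO, also of P9, Il1rl1, which encodes ST2, gave 37 and 46 UMIs in 1261 and 1255 microglia and 31 and 28 in 657 and 806, so its RNA was still counted in the libraries labelled KO. The assay reads the 3′ end, which may lie outside the deleted part, so this does not check the labels. With all cells kept, the class difference of no gene of 10456 differed between them (0 higher and 0 lower with edgeR and with DESeq2, 568 at an unadjusted p under 0.05). Without a low-count filter a few genes passed, as given further on. Within the libraries labelled Het, 2.37% of genes were higher and 1.76% lower in the chosen cells (all cells kept, 2.14% and 1.48%), and within those labelled KO 1.54% and 0.764% (1.29% and 0.574%). Without leukocyte-marked cells, 24 and 23 of 26 immediate early genes were higher in the 2 groups. Cd83 then rose by 1.57 ± 0.10 in those labelled Het and 0.79 ± 0.14 in those labelled KO. For the fit without these cells, no test of the difference between the 2 groups is given. Cells by the rule made up 2.85% and 3.28% after thinning to 1000 UMIs in the former and 1.98% and 2.36% in the latter, a difference of -0.898 points (exact permutation p = 0.33, the lowest possible).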

How the data were processed

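The deposited matrix holds whole-number UMI counts per gene and cell barcode, made by the authors with Cell Ranger on mm10, per the submitters' processing notes, with versions not given in the sources used here. Bulk samples of the series were not used here.

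Cells were assigned to libraries by barcode prefix and filtered by the rule in the opening. UMIs were summed per library and class (16 sums), and edgeR 4.0.16 (quasi-likelihood, TMM, low-count filter, R 4.3.3) was fitted over all 8 libraries with the library as a block, since both classes of a number come from the same library. This left 4 residual degrees of freedom. CPM in class comparisons are scaled by TMM factors, and CPM by rule UMIs, kind of cell or held-out gene are not. Genes used by the rule were left out of counts of calls. P-values were adjusted by Benjamini-Hochberg over all tested genes. Reads of overlapping genes and near-identical copies could have been split by the authors' counting. The script was tested on simulated counts. Alternatives included DESeq2 1.42.0. Cells with UMIs fewer than the thinning depth were left out, and intervals are exact Clopper-Pearson.

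The members and gene lists (14 of programmes, 12 of cell types) were chosen with earlier results of these data known. Genes named were the rule genes and markers, called list members, the 15 highest and 10 lowest called genes of at least 20 CPM and 5 genes for the difference between ages. Fits without leukocyte-marked cells, with Ccl9 left out or alone, and the gene rankings from them were added after seeing the data, and other named genes were chosen after their values were seen. Some genes that these rules name are not reported here.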

Additional observations from a re-analysis of the deposited data

Results flagged for a closer look

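The class difference of 13 named genes differed between P28 and wild-type P9 libraries by the direct edgeR test with all cells kept. They are given as log2 difference at P28 minus that at P9. Genes of antigen presentation led, with H2-Aa at 8.29 (adjusted p = 5.0e-13), H2-Eb1 at 6.86, H2-Ab1 at 3.60 and Cd74 at 3.53. Genes of monocytes and neutrophils followed, with S100a9 at 6.57 (adjusted p = 0.0095), Ms4a4c at 3.42, Cybb at 3.12, S100a4 at 2.44, Vim at 2.30, Wfdc17 at 2.11 and the cytokine Il1b at 1.26 (adjusted p = 0.043). Arsg, at -1.60 (adjusted p = 0.00045), and Cd83, at -0.62 (adjusted p = 0.0010), had a lower signed difference at P28. Arsg was lower in the chosen cells at P28 (-0.91) and higher at P9 (0.69), and Cd83 was higher at both ages.

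Without the leukocyte-marked cells, Arsg (-1.55, adjusted p = 0.00028) and Cd83 (-0.65, adjusted p = 2.8e-06) passed, and the other 11 did not. Among these, H2-Aa was then at 0.82 (adjusted p = 0.93), Cd74 at 0.70 (adjusted p = 0.055), Il1b at 0.81 (adjusted p = 0.32) and Vim at -1.0 (adjusted p = 0.74).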

How the results depend on the processing

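Counts of genes higher and lower in the chosen cells are given in pairs, as higher and lower, with the cause of a change not tested except where fewer cells or samples were used by construction. Against 319 and 132 at P28, there were 178 and 38 without the library block, 96 and 16 with DESeq2, 49 and 4 in the middle depth range, 71 and 41 under the median immediate early share, and 69 and 60 with Ccl9 alone. Higher genes were 130 with the chemokines left out of the rule. Lower genes were 209 without a low-count filter, 76 in P28 libraries alone with the block, 204 with a high class from 6 UMIs and 243 with Ccl9 left out. Without leukocyte-marked cells the pair was 154 and 77, with Ccl9 alone 16 and 20, in the depth range 49 and 2, under the median immediate early share 30 and 25, and with Ccl9 left out 228 were lower. In wild-type P9 (526 and 384) the pairs were 167 and 58 with DESeq2, 35 and 9 in the depth range, 183 and 72 under the median immediate early share and 141 and 71 with Ccl9 alone, and 221 were lower without the block. In ST2 Het (224 and 155) they were 136 and 41 without the block, 82 and 32 with DESeq2, 28 and 13 under the median immediate early share and 46 and 63 with Ccl9 alone. In ST2 KO (135 and 60) they were 64 and 15 with DESeq2 and 26 and 13 under the median immediate early share, with 55 higher for Ccl9 alone, 24 lower without the block and 111 lower with Ccl9 left out. For the difference between ages (140 and 164) they were 35 and 83 without the block, 21 and 48 with DESeq2, 2 and 3 in the depth range, 18 and 31 under the median immediate early share and 30 and 67 with Ccl9 alone, with 51 lower when Ccl9 was left out. For ST2 KO against Het (0 and 0) they were 7 and 5 without a filter.

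Leaving out 1 library gave 150 to 327 higher and 34 to 147 lower genes at P28, the lowest of each without P28 library 2 (without library 1, 169 and 66). It gave 279 to 586 and 139 to 442 in wild-type P9, 112 to 241 and 49 to 190 in ST2 Het, 76 to 144 and 19 to 86 in ST2 KO, and 59 to 136 and 98 to 168 for ages, in each case lowest when 1 library of the group compared was missing, whose lone library is assumed to vary like the others. The share of chosen cells at P28 minus P9 ran from -0.0674 to 0.834 points over these and was 5.16 at 2000 UMIs, 2.18 without thinning and 2.37 with at least 3 UMIs. For ST2 KO minus Het it ran from -1.11 to -0.687 and was -1.33 at 2000 UMIs. The held-out difference of Csf1 was 2.22 with at least 3 UMIs of the other 5 genes against 0.

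Some named genes changed sign (log2 values). Choosing cells under the median immediate early share selects on that list's own UMIs, so its values for these genes are set in part by the choice. Without leukocyte-marked cells these were S100a4 (-0.53), Vim (-0.33) and H2-Aa (-0.092). With Ccl9 also left out they were S100a4 (-5.98), Ccr2 (-0.41) and Csf1r (0.040). With Ccl9 alone as well they were S100a4 (-0.26), Vim (-1.72), Cybb (-1.48), Ccl2 (-0.034), Atf3 (-0.27), Nr4a1 (-0.73), Klf2 (-0.50), Fosb (-0.74), Ier2 (-0.42), Egr1 (-0.23), Fos (-0.90), Dusp1 (-0.61), Nfkbid (-0.43), Nfkbiz (-0.13), Ccl7 (-0.20) and Maff (-0.47). Under the median immediate early share they were S100a4 (-1.62), Klf2 (-0.012), Fos (-0.015), Nfkbid (-0.27), Nfkbiz (-0.051) and Ccl7 (-0.13), and in the depth range it was Ifitm3 (-0.36). With all cells kept, they were H2-Aa (-3.43), H2-Eb1 (-9.70), H2-Ab1 (-0.13) and Nfkbiz (-0.17) with chemokines left out, Gzma (0.59) and Csf1r (0.021) with Ccl9 left out, and Ccl2 (-0.033), Atf3 (-0.0064), Klf2 (-0.27), Ier2 (-0.21), Egr1 (-0.21), Nfkbid (-0.30), Ccl7 (-0.16) and Maff (-0.015) with Ccl9 alone. They were Nfkbid (-0.36) and Ccl7 (-0.16) under the median immediate early share. The difference between ages changed sign for S100a9 (-0.23 with Ccl9 alone, -1.71 in the depth range) and Tnfaip3 (0.49 under the median immediate early share).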
